A study of Mus musculus with 8 samples.

Results

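The genes described here are Ret, which encodes a receptor tyrosine kinase, the coreceptor genes Gfra1, Gfra2 and Gfra3, and the ligand genes Gdnf, Nrtn (neurturin) and Artn (artemin). The 7 are listed by name, by a rule with no threshold on measured values, and all 7 of 7 were found among the 49671 gene identifiers of the count table. RNA depleted of ribosomal RNA was sequenced from 8 mouse tumors that share 1 genotype: Cre at the Hprt locus (HprtCre), with loxP sites in Ewsr1 (Ewsr1-loxP) and in Atf1 (Atf1-loxP). Recombination joins Ewsr1 to Atf1, a fusion that in people marks clear cell sarcoma. Hprt is a housekeeping gene, so its locus does not tie Cre to a single cell type. The animals received no drug and the tumors were frozen at morbidity. The labels give no ages, no normal tissue and no control group, and the titles run from 1 to 6, with suffixes for numbers 2 (2L, 2R) and 4 (4a, 4b). Whether a shared number means a shared animal is not said. The p-values below therefore concern these libraries only. They set differences among the 6 title numbers against the spread inside the pairs 2L with 2R and 4a with 4b, which may be technical.

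Ret is unusual among receptor tyrosine kinases in that it does not bind its ligands alone. A dimeric ligand of the GDNF family first engages a coreceptor of the GFR alpha family, which is held to the membrane by a lipid anchor, and the pair then brings Ret molecules together so that they phosphorylate each other. GDNF prefers the product of Gfra1, neurturin that of Gfra2, artemin that of Gfra3 and persephin that of Gfra4. The pathway is best known from the enteric nervous system, the developing kidney and sympathetic and sensory neurons, all of which need Ret or a coreceptor to form normally, and activating RET mutations cause thyroid and adrenal medullary tumors.

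All 7 genes had counts in all 8 tumors, but at very different levels. Levels of different genes are given as CPM per kb, which is counts scaled to library size (CPM, with TMM factors) and divided by the merged exon length, as a mean over the 8 libraries. On that scale Gfra3 stood at 82.0, Gfra1 at 35.4, Ret at 18.7, Gfra2 at 14.4, Gdnf at 8.77, Nrtn at 1.501 and Artn at 0.489. Among the 11495 tested genes with a known length, whose median level was 5.57, these levels placed Gfra3 at the 98.0th percentile, Gfra1 at the 93.8th, Ret at the 86.2nd, Gfra2 at the 80.7th and Gdnf at the 66.8th. Per kb, Gfra3 exceeded Ret in 7 of 8 tumors, Gfra1 in 4 and Gfra2 in 2, so the higher mean of Gfra1 does not hold for each tumor. Gdnf was the only ligand gene above the median tested gene. Nrtn and Artn fell below the filter on low counts and could not be placed among them. In bulk tumor RNA, fewer cells that express a gene and less RNA per cell cannot be told apart.

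Sequencing depth was lowest in library 3, at 4817902 counts in total, and highest in 2L, at 19682149. TMM, which scales the libraries so that most genes agree, gave factors between 0.830 and 1.36 in 7 libraries and 0.394 in library 3. The 5 most abundant RNAs held 59.9% of the counts in library 3, against 5.74% to 34.8% in the others. Plain CPM on library totals lay 1.36 lower on the log2 scale than the TMM-scaled CPM in library 3, and between 0.289 lower and 0.39 higher in the other 7. Values of library 3 are the ones that scaling moves most, and they are given on both scales where that matters. Shares and ratios of genes within a library do not depend on the scaling.

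Ret (ENSMUSG00000030110, mm10 chromosome 6, 118151745 to 118197718, minus strand) was the steadiest of the receptor and coreceptor genes. From high to low, it stood at 199 CPM in tumor 4a, 191 in 4b, 157 in 3, 127 in 5, 115 in 2L, 84.7 in 1, 74.1 in 6 and 63.4 in 2R. Tumors 4a and 4b were highest and 2R lowest, also in plain CPM, but library 3 then stood second lowest, at 61.0. The highest and lowest values differed 3.14-fold in TMM-scaled CPM and 5.03-fold in plain CPM. Only 4a and 4b, which share a number, had counting intervals (exact Poisson, 95%) that overlapped; every other step in the order exceeded counting error. The mean was 126 ± 52.0 CPM (SD, n = 8), and 122 ± 54.6 without library 3 (n = 7). The SD of log2 CPM was 0.622 for Ret, against a median of 0.513 over the 11505 tested genes, which put Ret at the 62.7th percentile of spread. The median ratio of highest to lowest library over these genes was 2.95 in TMM-scaled CPM and 5.22 in plain CPM, so the range of Ret was close to that of a typical gene on either scale.

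**Figure D1:**
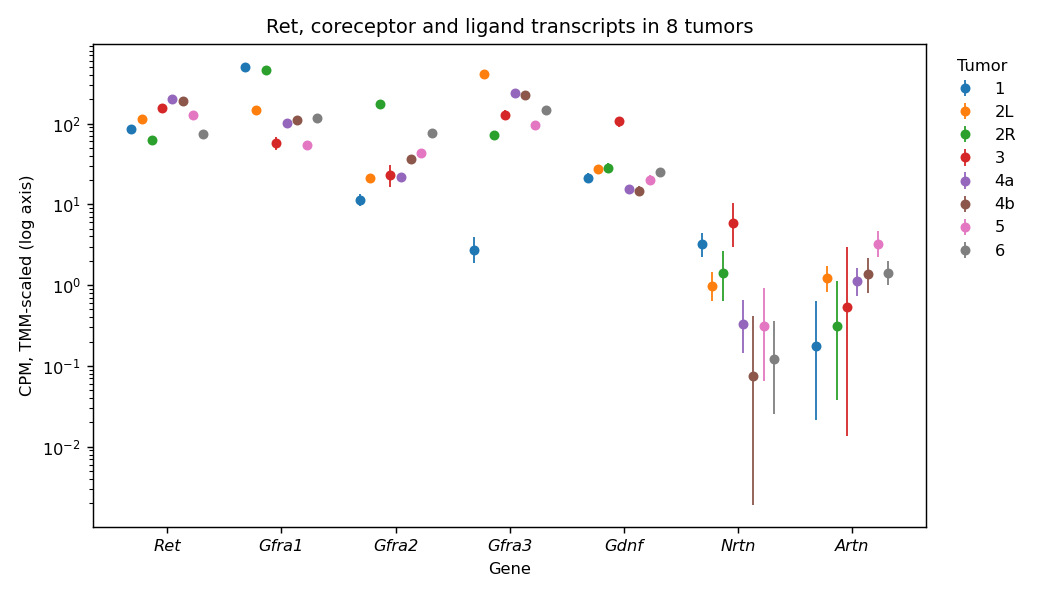
CPM of the 7 genes in each tumor (TMM-scaled, log axis); each point is 1 library, colored by tumor, and bars are exact Poisson 95% intervals of the count. Ret spans 63.4 to 199 CPM, whereas Gfra3 spans 2.75 to 404 CPM, and Gdnf stays between 14.8 and 28.0 CPM except in tumor 3.

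Ret ranked 7th of 58 receptor tyrosine kinase genes by mean CPM per kb. The receptors above it were led by Kdr, a VEGF receptor of endothelium, at 53.2, followed by Axl, a receptor for Gas6, at 45.1 and Ddr2, a collagen receptor, at 36.3. Epha2, an ephrin receptor at 18.7, stood next above Ret, and Ryk, a Wnt-binding pseudokinase at 17.4, next below. The differences of Ret from these neighbors were smaller than its own SD over tumors. Within single tumors Ret ranked 2nd in 3, 5th in 4a and in 4b, 6th in 5, 10th in 1, 2L and 6, and 12th in 2R. Its spread over tumors was among the smaller ones, the 9th smallest of the 39 receptor genes that passed the filter. Leaving out any 1 library gave Ret rank 6, 7 or 8.

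**Figure D2:**
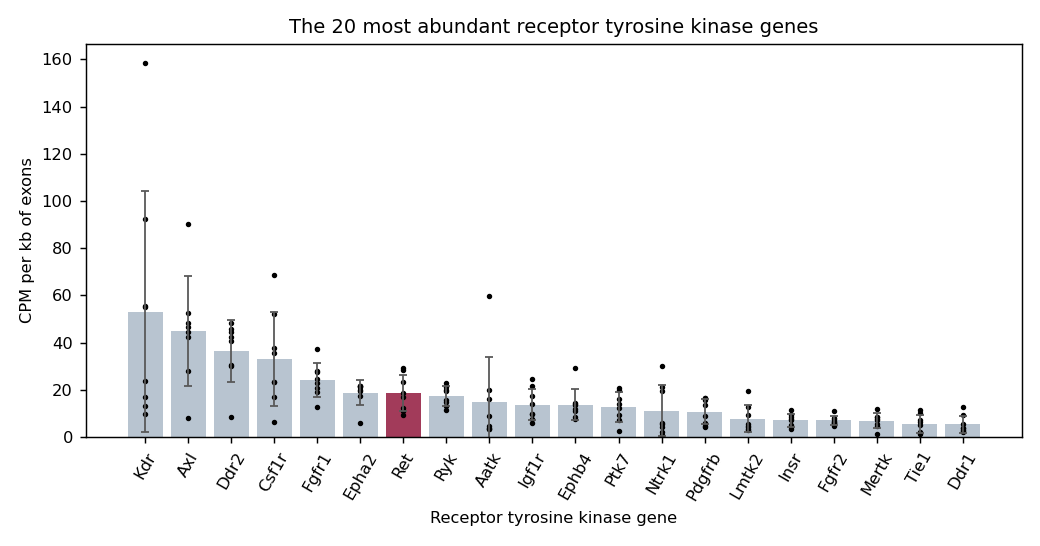
The 20 receptor tyrosine kinase genes of highest mean CPM per kb of exons; bars are means over 8 tumors, error bars are SD and dots are single tumors. Ret, in red, stands 7th at 18.7 CPM per kb, with a smaller spread than Kdr, Axl or Csf1r.

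The coreceptor genes varied far more than the receptor, and different tumors carried different coreceptors. Gfra3 was the most abundant coreceptor per kb in 6 of 8 tumors, Gfra1 in tumors 1 and 2R. The same 6 and 2 tumors resulted when counts were not scaled by exon length.

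Gfra1 (ENSMUSG00000025089, chromosome 19, 58235604 to 58455909, minus strand), the preferred coreceptor gene for GDNF, had its highest levels in tumor 1 at 502 CPM and 2R at 462, followed by 2L at 147, 6 at 117, 4b at 109, 4a at 100.3, 3 at 57.0 and 5 at 54.9 CPM. Tumors 1 and 2R both stood at more than 400 CPM, though their counting intervals did not overlap. The other 6 lay at 147 CPM or lower. The intervals of 6 and 4b, of 4b and 4a, and of 3 and 5 overlapped. Overlap of 2 such intervals does not by itself mean that the values agree within counting error. In plain CPM library 3, at 22.2, was lowest, below 5 at 53.4, and the range over tumors grew from 9.16-fold to 24.3-fold. The mean was 194 ± 181 CPM (SD, n = 8). An antisense gene, Gm16277, shares 416 exonic bases with Gfra1, but it had at most 2 counts in any library.

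Gfra3 (ENSMUSG00000024366, chromosome 18, 34689898 to 34720387, minus strand), the preferred coreceptor gene for artemin, had the widest range of the receptor and coreceptor genes. Its order ran from 2L at 404 CPM through 4a at 236, 4b at 226, 6 at 145, 3 at 129, 5 at 95.5 and 2R at 71.5 down to tumor 1 at 2.75 CPM. Tumor 1 held 31 counts of Gfra3 where 2L held 10309, a 147-fold difference in CPM, and the next lowest tumor, 2R, stood at 71.5 CPM. In plain CPM library 3, at 50.2, fell below 2R, at 58.5. The SD of log2 CPM was 2.20, at the 99.5th percentile of the tested genes. The mean was 164 ± 124 CPM (SD, n = 8). Intervals overlapped between 4a and 4b and between 6 and 3.

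Gfra2 (ENSMUSG00000022103, chromosome 14, 70890120 to 70979838, plus strand), the preferred coreceptor gene for neurturin, followed neither of the other two. Its level was 173 CPM in 2R, 77.4 in 6, 43.5 in 5, 36.6 in 4b, 22.9 in 3, 21.9 in 4a, 21.1 in 2L and 11.4 in tumor 1. Tumor 2R was highest by a wide step, 6 came next, and tumor 1, which was highest in Gfra1, was lowest, although in plain CPM library 3, at 8.93, stood below tumor 1, at 12.2. The values of 3, 4a and 2L did not differ beyond counting error. The mean was 51.0 ± 53.4 CPM (SD, n = 8).

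Within a tumor, the make-up of the coreceptor transcripts can be read without any scaling between libraries. As a share of the summed counts per kb of Gfra1, Gfra2, Gfra3, Gfra4 and Gfral, Gfra1 took 94.3% in tumor 1 and 49.6% in 2R, and between 11.4% and 18.4% in the other 6. Gfra3 took 1.42% in tumor 1, 21.03% in 2R, 62.4% in 6, 67.9% in 5, 78.6% in 3, 78.9% in 4b, 82.8% in 4a and 85.9% in 2L. Gfra2 took 28.8% in 2R, 18.8% in 6 and 17.4% in 5, and at most 7.88% in the remaining 5 tumors. It came second in these 3 tumors and in tumor 1, there at 3.30%. In 6 it stood barely above Gfra1, at 18.4%. Of the counts not scaled by exon length, Gfra1 took more than Gfra2 in 6 (34.4% against 22.7%) and in 5 (28.2% against 22.4%). Tumors 2L and 2R, which share a number, thus lay on opposite sides, with Gfra3 leading in 2L and Gfra1 in 2R. Tumors 4a and 4b had nearly the same make-up. Counting error was small beside the gap between tumors led by Gfra3 and those led by Gfra1. Of the unscaled coreceptor counts in library 3, the shallowest, Gfra3 made up 61.3% of 395 counts (exact Clopper-Pearson 95% interval 56.3% to 66.1%), and in tumor 1 it made up 0.531% of 5840 counts (0.361% to 0.753%).

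**Figure D3:**
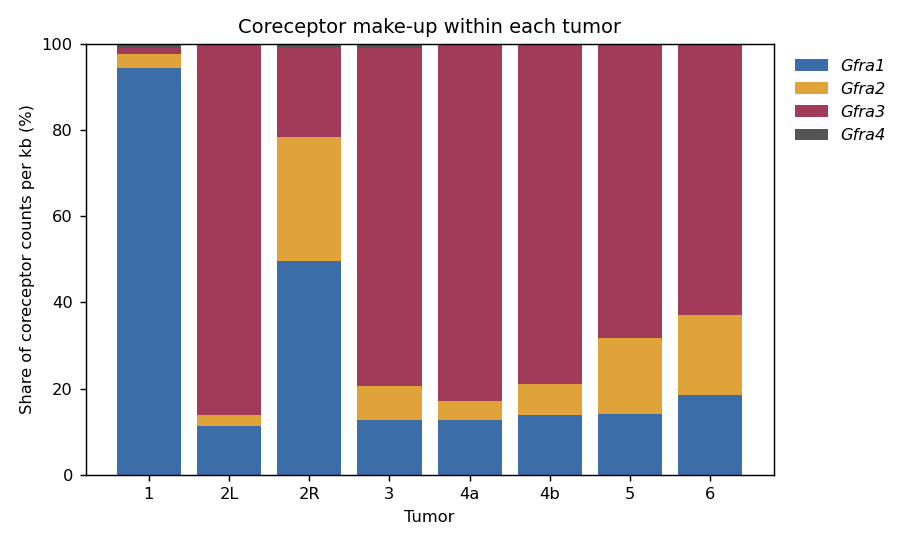
Share of each coreceptor gene in the summed coreceptor counts per kb of exons (stacked, in percent) for each tumor. Gfra1 (blue) leads in tumors 1 and 2R at 94.3% and 49.6%, and Gfra3 (red) leads in the other 6 at 62.4% to 85.9%.

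The ratio of coreceptor to Ret transcripts was above 1 in every tumor. Gfra1, Gfra2 and Gfra3 together held 3.52 times the counts per kb of Ret in tumor 3, 3.73 in 5, 4.85 in 4a, 5.08 in 4b, 7.69 in 1, 10.6 in 6, 13.8 in 2L and 18.1 in 2R. The tumor with the least Ret, 2R, had the highest ratio, but Ret is the denominator, so the 2 are not independent. The 3 coreceptors summed to 132 ± 53.7 CPM per kb (SD, n = 8) and ranged 3.35-fold, from 70.1 in 5 to 235 in 2L, in TMM-scaled CPM, where each coreceptor alone ranged 9.16-fold (Gfra1), 15.2-fold (Gfra2) and 147-fold (Gfra3). In plain CPM the sum ranged 9.61-fold, from 31.7 in library 3 to 305 in 2L. Relative to Ret, Gfra1 ranged from 0.449 in 3 to 9.01 in 2R, Gfra2 from 0.211 in 4a to 5.22 in 2R, and Gfra3 from 0.110 in 1 to 11.9 in 2L.

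**Figure D4:**
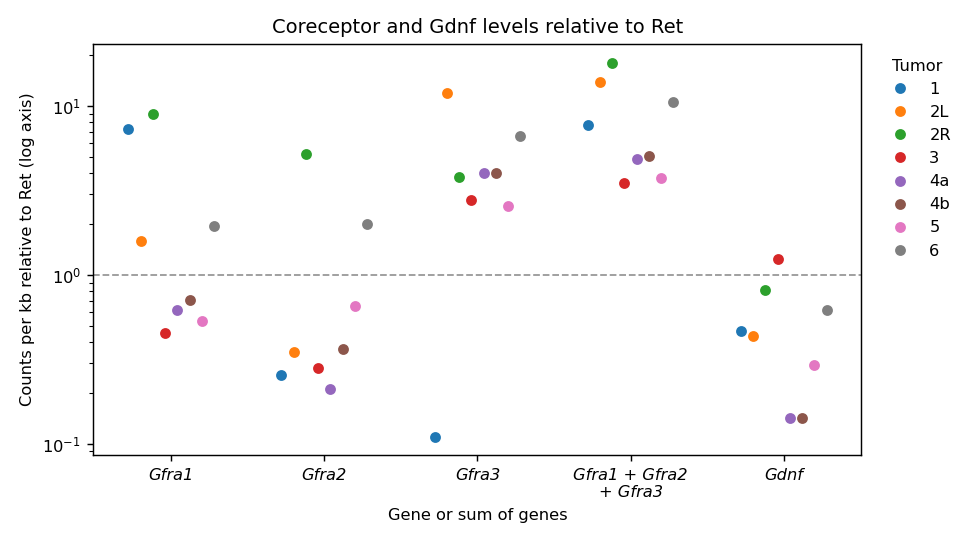
Counts per kb of Gfra1, Gfra2, Gfra3, their sum and Gdnf relative to Ret in the same tumor (log axis; the dashed line is a ratio of 1). The sum lies between 3.52 and 18.1 in all 8 tumors, while Gfra3 alone runs from 0.110 in tumor 1 to 11.9 in 2L.

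Among the ligands, Gdnf was the main transcript in every tumor. It took 64.5% of the summed ligand counts per kb (Gdnf, Nrtn, Artn and Pspn) in tumor 1 and between 76.8% and 90.5% in the other 7. Gdnf (ENSMUSG00000022144, chromosome 15, 7810846 to 7837575, plus strand) reached 106 CPM in tumor 3, and the other levels were 28.0 in 2R, 27.2 in 2L, 24.9 in 6, 21.3 in 1, 20.2 in 5, 15.4 in 4a and 14.8 in 4b. Outside library 3 the values ran from 14.8 to 28.0 CPM, a 1.89-fold range, with a mean of 21.7 ± 5.34 CPM (SD, n = 7), against 32.2 ± 30.2 with it (n = 8). Without library 3 Gdnf lay at the 41.8th percentile of dispersion among tested genes, instead of the 88.2nd. Library 3 has the low TMM factor of 0.394. In plain CPM Gdnf was still highest there, at 41.3, but 2L at 35.3 and 6 at 31.6 came close. Relative to Ret per kb, Gdnf ranged from 0.142 in 4a to 1.25 in 3. Tumors 4a and 4b (0.143), lowest in this ratio, were highest in Ret, its denominator, and lowest in Gdnf in TMM-scaled CPM.

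Nrtn (ENSMUSG00000039481, chromosome 17, 56751325 to 56757530, minus strand) had 96 counts over all 8 libraries. Tumor 3 stood at 5.86 CPM and tumor 1 at 3.20, followed by 2R at 1.40, 2L at 0.980, 4a at 0.331, 5 at 0.316, 6 at 0.122 and 4b at 0.0756 CPM. Tumors 1 and 3 were highest. Every pair of neighbors in this order had overlapping counting intervals, although the intervals of tumor 1 (2.24 to 4.43 CPM) and of 6 (0.0251 to 0.356 CPM) lay apart. In plain CPM tumor 1, at 3.43, was above library 3, at 2.28. Tumor 1, with 36 of the 96 counts, was the tumor with the least Gfra2 in TMM-scaled CPM, the coreceptor gene that neurturin prefers.

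Artn (ENSMUSG00000028539, chromosome 4, 117926162 to 117929763, minus strand) had 147 counts in all. Its level was 3.26 CPM in 5, 1.42 in 6, 1.36 in 4b, 1.21 in 2L, 1.12 in 4a, 0.533 in 3, 0.311 in 2R and 0.178 in tumor 1. Tumor 5 was highest, and its counting interval (2.22 to 4.63 CPM) overlapped only that of tumor 3, which rests on 1 count. Tumors 1 and 2R held only 2 counts each. The coreceptor gene of highest level in most tumors, Gfra3, therefore stood beside a very low level of the gene for its preferred ligand. In 2L Gfra3 was at 404 CPM and Artn at 1.21 CPM, and in tumor 1, where Gfra3 was at 2.75 CPM, Artn was at 0.178 CPM.

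The remaining genes of the family were low or had no counts. Pspn, which encodes persephin, and Gfral, the receptor gene for GDF15, had 0 counts throughout. By counting error, such a 0 leaves room for 1.598 CPM in library 3 and for 0.467 CPM or less in any other. Gfra4 did not exceed 2.18 CPM. Gdf15, a stress-induced hormone gene, reached 5.89 CPM in 6 and 5.49 CPM in 2L, and was at most 4.05 CPM elsewhere.

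Because the fusion carries a factor of the CREB/ATF family, the promoters of the members were searched for the cAMP response element, TGACGTCA, and its core, TGACG on either strand (the longer motif contains the core). RefSeq windows of 300 bases on GRCm38.p6, from 250 bases before to 50 after an annotated start, were at hand for 4 of the 7 genes (Gfra1, Nrtn, Artn and, with 2 starts, Gdnf). The full element was in none of these 5 windows, and 1.79% of all 32851 windows hold it. The core was in 1 window, the upstream start of Gdnf, and 20.8% of all windows hold it. The 100 bases before that start (GRCm38.p6, chr15:7809948-7810047, plus strand) are shown because Gdnf is the main ligand gene of these tumors, with the match at position -50 in capitals (the core as read on the minus strand).
Gdnf promoter: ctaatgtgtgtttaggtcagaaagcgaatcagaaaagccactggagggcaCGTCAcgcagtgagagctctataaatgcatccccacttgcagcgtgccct
A match of 5 letters is a description and not a binding site.

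The labels give no structure among the tumors beyond the repeated numbers 2 and 4, so differences among the 6 numbers were tested for all genes. edgeR's quasi-likelihood F-test called 0 of the 5 members that passed the filter, against a background of 0% (0 of 11505 genes, 2813 with an unadjusted p under 0.05). The adjusted p was 0.0974 for Gdnf, 0.173 for Gfra1, 0.208 for Gfra3, 0.252 for Ret and 0.442 for Gfra2. DESeq2's likelihood ratio test called Gdnf, Gfra3 and Gfra1 (adjusted p = 1.56e-06, 7.32e-05 and 0.000122), with 20.7% of genes called, and did not call Gfra2 (adjusted p = 0.0808) or Ret (adjusted p = 0.158). Leaving out 2L or 2R let edgeR call all 5, with 38.7% or 39.3% of all genes, since the spread was then measured by 4a and 4b alone. Without the filter on low counts edgeR called 5 of the 7 members (Ret, Gfra1, Gfra3, Gdnf and Nrtn), with 20.6% of all genes.

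The same-number pairs show where that spread came from. Between 2L and 2R the log2 ratio was 2.50 for Gfra3, 0.856 for Ret, -0.0411 for Gdnf, -1.65 for Gfra1 and -3.03 for Gfra2, against a median absolute value of 0.409 over all tested genes. The 3 coreceptor genes lay at the 97.7th, 93.3rd and 98.7th percentile of absolute ratio (Gfra3, Gfra1, Gfra2), and Gdnf at the 5.997th. Between 4a and 4b the values were 0.0611 for Gfra3, 0.0596 for Ret, 0.0523 for Gdnf, -0.124 for Gfra1 and -0.733 for Gfra2, with a median of 0.283. All tested members except Gfra2 were thus closer between 4a and 4b than a typical gene. In plain CPM the Gdnf ratio of 2L to 2R was 0.622. With 1 library on each side, these ratios have no test.

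Other proteins that act at Ret were transcribed broadly. Of 8 genes for further GDNF or Ret binding proteins, 7 averaged at least 10 CPM. Sdc3, a heparan sulfate proteoglycan that binds GDNF, stood at 273 ± 142 CPM (SD, n = 8), Lrig1, which encodes a membrane inhibitor of receptor kinases, at 146 ± 70.6 CPM, and Cdh1, the E-cadherin gene, at 31.1 ± 51.0 CPM with 149.5 CPM in 2L. All 4 convertase genes averaged at least 10 CPM. Pcsk6, a proprotein convertase, was very abundant at 2330 ± 1983 CPM, from 767 in tumor 1 to 5949 in 6 and 4846 in 2R. Furin, which cleaves growth factor precursors in many cells, stood at 87.3 ± 16.7 CPM and Pcsk7 at 33.9 ± 8.23 CPM.

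Of 24 genes for adaptors and enzymes recruited to active Ret, 20 passed the filter, and the median SD of log2 CPM of these was 0.473, against 0.513 over all tested genes. Dok4, a docking protein gene, led per kb at 119.7 ± 62.8 CPM, followed by the insulin receptor substrate gene Irs2 at 194 ± 52.7 CPM and the adaptor gene Crk at 124 ± 18.9 CPM (SD, n = 8). Inhibitors passed in 7 of 10 cases, led by the phosphatase genes Ptprf, Ptprj and Ptpn1 at 246 ± 96.1, 126 ± 56.5 and 57.6 ± 17.1 CPM. Genes induced by ERK, which Ret and many other receptors activate, passed in 11 of 13 cases. Dusp6, an ERK phosphatase, stood at 333 ± 115 CPM, with 149 CPM in tumor 1 and 164 CPM in 3, and between 339 and 443 CPM in the other 6. Ier3 stood at 33.1 ± 14.1 CPM and Spred1 at 164 ± 28.4 CPM. edgeR called 0 members of these 5 lists among the numbers, where the background was 0% as above. DESeq2 called 2 of 7 binding proteins, 2 of 4 convertases, 6 of 20 adaptors, 0 of 7 inhibitors and 4 of 11 ERK targets, against its background of 20.7%.

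Several genes had a pattern over the 8 tumors close to that of a member. The 4 genes most like Ret among 10758 candidates were Rasal2, a RasGAP gene (r = 0.953, rho = 0.929), the collagen-binding integrin gene Itga11 (r = 0.949, rho = 0.952), Tmem252 (r = 0.946, rho = 0.929) and the endothelial nitric oxide synthase gene Nos3 (r = 0.946, rho = 0.905), as Pearson and Spearman correlations of log2 CPM over 8 libraries. The median r of all candidates with Ret was -0.0132. Without library 3 the 4 genes kept r between 0.942 and 0.968, but other genes ranked above them. These are the highest of many values and carry no test. Most like Gfra1 by Pearson correlation were Slc2a8, Lamc1 and Epha4 (r = 0.944, 0.943 and 0.929, rho = 0.952, 0.857 and 0.738). Most like Gfra2 were Umad1, Trp53i13 and Gpsm3 (r = 0.934, 0.893 and 0.892, rho = 0.929, 0.643 and 0.905).

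The gene most like Gfra3 was Tfap2c, which encodes the transcription factor AP-2 gamma, with r = 0.968 over 8 libraries and 0.985 without library 3. Tfap2c was lowest in tumor 1 at 8.88 CPM, and stood at 42.8 in 2R, 62.8 in 5, 77.8 in 6, 86.8 in 2L, 88.0 in 4a, 90.0 in 4b and 96.4 in 3. Tumors 1 and 2R, lowest in Gfra3 in TMM-scaled CPM, were also lowest in Tfap2c on that scale, while among the other 6 the order differed. Spearman's rho was 0.667, by which Tfap2c ranked only 449th of 10758 candidates. Insig1, a regulator of sterol synthesis (r = 0.945), and Gpr65, a proton-sensing receptor gene (r = 0.934), came next. For Gdnf the closest genes were Pygo2, Faap100 and Entr1 (r = 0.989, 0.989 and 0.988). All 3 were highest in library 3, and without it their r was 0.925, 0.951 and 0.927.

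Markers of other cell types were set beside the coreceptor patterns. Most neuron markers were low: 8 of 14 averaged 1 CPM or more, and none was at 0 in all libraries. Their sum was 319 CPM in tumor 1, which was highest in Gfra1, 131 in 6 and 129 in 2R, and between 44.2 and 78.5 in the other 5. Stmn2, a neuronal microtubule gene, was highest in the 2 tumors led by Gfra1, at 161 (tumor 1) and 95.3 CPM (2R), while the other 6 did not exceed 43.3 CPM. Snap25 was likewise highest in tumors 1 and 2R, at 26.8 and 5.76 CPM, with 5.37 CPM next in 5. Vip, Nefl and Nefm were too, at no more than 3.11 CPM. They had only 44, 14 and 6 counts over all libraries, so their order says little. The rest of the 14 markers did not have these 2 tumors highest. Among them, Tubb3, Prph and Gap43 were highest in 6, at 48.6, 65.2 and 16.3 CPM. They came next in tumor 1, at 47.1, 50.6 and 11.1 CPM, and stood at 9.50, 11.4 and 1.25 CPM in 2R. The part of neuron-like expression in the Gfra1 levels was not tested. Tumor 2L, highest in Gfra3, also held the most skeletal muscle and epithelial RNA, with sums of 20810 CPM over 10 markers and 1708 CPM over 8. Tumors 4a and 4b, next in Gfra3, had muscle sums of 43.6 and 15.3 CPM and epithelial sums of 6.63 and 3.10 CPM. Schwann and glia markers (10 genes) summed to 607 CPM in 6 and 23.4 CPM in 2R, the 2 tumors highest in Gfra2, which were thus the highest and lowest of the 8 for these markers. Endothelial, macrophage and fibroblast sums, over 8 markers each, ran from 145 CPM in 1 to 480.4 CPM in 4b, from 314 CPM in 3 to 3817 CPM in 6, and from 1488 CPM in 3 to 22376 CPM in 4b. The endothelial sum of tumor 6, 434 CPM, was mostly Egfl7, at 365 CPM. Cdh5, Pecam1, Cldn5, Erg, Tie1 and Tek were each lowest in 6, while Egfl7 was lowest in 1 and Emcn in 2R.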

How the data were processed

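The authors deposited 1 table of raw counts per gene, whole numbers for 8 libraries. The submitters' processing notes name build mm10 and the tools STAR 2.7.5a, RSEM, cutadapt and featureCounts. Their order, the tool that made the counts and strand handling are not given in the sources used here. Each column was tied to its tumor by the labels. Of 49671 identifiers, 49412 were named with GENCODE M21, which also gave coordinates and merged exon lengths. From the deposited counts, edgeR 4.0.16 (R 4.3.3) kept 11505 genes with filterByExpr for 1 group (10 counts in a library of median size, 0.920 CPM), computed TMM factors and log2 CPM (prior count 2), and tested the 6 title numbers with a robust quasi-likelihood F-test on 2 residual degrees of freedom, adjusted after Benjamini and Hochberg at 0.05. DESeq2 1.42.0 was an alternative. The F-test script was also tested on simulated counts. Poisson, binomial and 0-count limits (3 counts) cover counting error only. Totals of 4817902 to 19682149 counts set the precision. From each gene list the 3 members of highest mean CPM per kb were named, and genes like a member were taken at a mean of at least 5 CPM. The members and lists were chosen with earlier results of these data known. Other scalings, filters and left-out libraries were tried.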

Additional observations from a re-analysis of the deposited data

Results flagged for a closer look

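Of 16 measures examined over the 8 tumors, 6 had a library whose gap to the nearest other exceeded Dixon's 95% critical value for 8 samples. For normally distributed values chance flags about 1 in 20 such groups, and measures of the same gene are not independent. CPM and ratios over tumors can be skewed: for Gfra2 the SD, 53.4 CPM, exceeded the mean, 51.0 CPM. How often chance flags such measures is therefore not known. Gdnf in tumor 3 stood at 106 CPM, with 28.0 CPM next in 2R. Gfra2 in 2R stood at 173 CPM, with 77.4 CPM next in 6, and relative to Ret it was 5.22 in 2R and 1.99 in 6. Artn in tumor 5 stood at 3.26 CPM, from 31 counts, with 1.42 CPM next in 6. In tumor 1 the log2 ratio of Gfra3 to Gfra1 per kb was -6.06, with -1.24 next in 2R, and the Gfra1 share of the coreceptors was 94.3%, with 49.6% next in 2R. In plain CPM, an alternative chosen after seeing the data, none of the 7 genes had such a gap: the highest library and the next stood at 41.3 and 35.3 for Gdnf, 142 and 98.2 for Gfra2, and 3.18 and 1.81 for Artn. The ratios and shares do not depend on the scaling.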

How the results depend on the processing

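Mean levels of all 7 genes moved by less than 1 SD under DESeq2 size factors, plain CPM, upper-quartile scaling, same-number means and each left-out library. This SD is the one over the 8 libraries, a wide bound. Averaging libraries or leaving out 1 could hardly move a mean that far, so those settings say little here. The mean of Gfra2 fell from 51.0 to 34.4 CPM without 2R. The rank of Ret among receptor kinases stayed between 6 and 8, and the mean ratio of 3 coreceptors to Ret between 7.04 and 9.12. The count of genes differing among numbers was 0 with edgeR, 2383 with DESeq2's likelihood ratio test and 6260 of 30321 without the filter (20.6%), and 0 to 4548 with 1 library left out (4457 without 2L, 4548 without 2R); members called were 0, 3 and 5, and 0 to 5. Without 2L or 2R the spread rests on 4a and 4b. For DESeq2 and the unfiltered fit the cause was not tested. The dispersion percentile of Gdnf was 41.8 without library 3. In plain CPM the median absolute log2 ratio of 2L to 2R rose to 0.688, and the Gfra1 ratio of 4a to 4b changed sign to 0.032, through the library totals used as scale. Nrtn and Artn, with 96 and 147 counts, are limited by depth.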

Other observations

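Transcription factor genes reported to act on Ret in neural crest, kidney, thyroid or breast cells were mostly low in these tumors. Of 17, 9 averaged at least 1 CPM and 2 at least 10 CPM. Sox11, a factor of neural and mesenchymal progenitors, stood at 246 ± 148 CPM (SD, n = 8), with 470 CPM in tumor 5 and 417 in 3. It stood at 75.4 and 76.9 CPM in 6 and 2R, the 2 tumors lowest in Ret in TMM-scaled CPM. In 4a and 4b, highest in Ret, Sox11 was at 189 and 262 CPM. A link between Sox11 and Ret was not tested. Tfap2c stood at 69.2 ± 30.0 CPM and Gata3 at 4.31 ± 4.66 CPM. Sox10 had 7 counts over all libraries, and Nkx2-1, the thyroid factor gene, had 0.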
